A study of Mus musculus with 58 samples.

Results

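The genes described here encode 10 enzymes of ceramide and sphingomyelin metabolism, taken by symbol from a table of 18088 genes: the sphingomyelinases Smpd1 and Smpd3, the ceramidases Asah1, Acer2 and Acer3, the sphingomyelin synthases Sgms1 and Sgms2, the ceramide synthases Cers2 and Cers6, and the sphingosine kinase Sphk2. All 10 were found, and all 10 passed the filter on low values. RNA had been sequenced from prefrontal cortex of C57BL/6J mice aged 25 days, labelled heterozygous for Kmt5b (HT) or wild-type (WT), with the altered allele not described in the labels. Pups had received fluoxetine, lithium or vehicle in maternal milk for 3 weeks, between postnatal days 3 and 24. There were 10 libraries each of HT fluoxetine, HT lithium, HT vehicle, WT fluoxetine and WT vehicle, and 8 of WT lithium, with females and males in equal numbers. The labels did not give the litter, so the tests treated pups as independent and weighed differences only against the spread between these samples. Pups nursed by the same dam would share her exposure. Drug differences therefore cannot be told apart from litter differences, and p-values for the drugs may be too small. Words such as rose, fell or raised describe differences between groups of libraries. The symbols had been chosen with results on these libraries in view. On record were the level of Asah1 in HT against WT under vehicle and that of Sgms1 in HT under fluoxetine against vehicle. These comparisons are therefore described without p-values. The values behind the choice of the other symbols are not recorded.

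Ceramide is a membrane lipid built from a sphingoid base and a fatty acid. Sphingomyelin synthases turn it into sphingomyelin, the main sphingolipid of cell membranes, sphingomyelinases turn it back, and ceramidases split it into a fatty acid and sphingosine, which sphingosine kinases phosphorylate to the signalling lipid sphingosine 1-phosphate. In the brain these lipids are abundant in myelin. Fluoxetine, a serotonin reuptake inhibitor, is also known to lower the activity of lysosomal acid sphingomyelinase, a property of the protein that RNA levels do not measure. Lithium is a mood stabiliser that inhibits glycogen synthase kinase 3.

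Libraries held between 23.5 and 38.6 M reads. Kmt5b, read first to check the labels, averaged 1734 ± 98.3 normalised counts in libraries labelled HT (SD, n = 30) and 1654 ± 137 in libraries labelled WT (SD, n = 28), with a log2 difference under vehicle of 0.08 (limma adjusted p = 0.435). The libraries labelled HT therefore did not hold less of it, and HT and WT stand for libraries so labelled. Markers of cortical excitatory neurons were high throughout, with a mean log2 level of 12.5 to 13.3 per library. The mean log2 level of 4 olfactory bulb markers divided the libraries: 10 lay at or below 5.01, and 48 between 6.77 and 10.6. Of the 10 low ones, 3 were HT fluoxetine, 3 HT lithium, 1 WT fluoxetine and 3 WT vehicle, and none was HT vehicle or WT lithium. In bulk tissue, fewer cells of a type and less RNA per cell cannot be told apart.

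Per kb of exon, the members spanned a 62.6-fold range of mean levels. Smpd1 led with 901 ± 64.4 normalised counts per kb (SD, n = 58), followed by Smpd3 (472 ± 42.6), Asah1 (437 ± 27.0), Cers2 (350 ± 52.1), Cers6 (221 ± 21.1) and Sphk2 (169 ± 17.2). Sgms1 reached 100.2 ± 13.4, and Acer3 (42.9 ± 3.78), Acer2 (22.1 ± 5.28) and Sgms2 (14.4 ± 3.32) were lowest. Ranges overlapped between Smpd3 and Asah1, Asah1 and Cers2, Cers6 and Sphk2, Acer3 and Acer2, and Acer2 and Sgms2, while those of Smpd1, Cers2, Sphk2 and Sgms1 lay wholly above the next in order. Per kb, Smpd1 stood above Smpd3 and Sgms1 above Sgms2 in every library.

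Promoter sequence is shown for both sphingomyelin synthases and for Acer2, the members with the highest log2 differences under the drugs. RefSeq (GRCm38.p6) listed starts for 8 of the 10 members, and the 250 bases before the most upstream start found in an annotated transcript are given 5′ to 3′ on the gene's strand. The windows are chr19:32388513-32388762 for Sgms1 (minus strand), chr3:131344909-131345158 for Sgms2 (minus strand) and chr4:86874164-86874413 for Acer2 (plus strand). Capitals mark a GC box (GGGCGG) or a CCAAT box (CCAAT), each on either strand and none overlapping another.
Sgms1: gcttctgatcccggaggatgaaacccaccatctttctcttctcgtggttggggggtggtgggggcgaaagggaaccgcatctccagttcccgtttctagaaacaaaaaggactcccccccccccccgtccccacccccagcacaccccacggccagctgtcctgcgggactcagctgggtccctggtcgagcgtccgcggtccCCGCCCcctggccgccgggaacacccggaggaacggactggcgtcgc
Sgms2: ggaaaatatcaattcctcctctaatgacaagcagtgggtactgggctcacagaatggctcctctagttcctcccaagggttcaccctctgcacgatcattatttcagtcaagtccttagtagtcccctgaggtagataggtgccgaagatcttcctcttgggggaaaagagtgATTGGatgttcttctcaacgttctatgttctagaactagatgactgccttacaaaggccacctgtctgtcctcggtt
Acer2: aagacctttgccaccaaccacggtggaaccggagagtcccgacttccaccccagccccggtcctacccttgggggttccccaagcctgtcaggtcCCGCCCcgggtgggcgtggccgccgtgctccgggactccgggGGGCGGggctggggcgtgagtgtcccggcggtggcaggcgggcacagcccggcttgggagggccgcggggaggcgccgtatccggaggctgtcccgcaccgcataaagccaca
The Sgms1 window held 1 GC box, the Acer2 window 2 GC boxes and the Sgms2 window 1 CCAAT box, and the E-box CACGTG was in none of the 3. Among 32851 mouse promoter windows of that length, 32.7% held a GC box, 33.9% a CCAAT box and 6.02% that E-box. G and C made up 67.2% of the Sgms1 window, 47.2% of the Sgms2 window and 73.2% of the Acer2 window, against a median of 52.4% in all windows. Sgms1 had 4 listed starts, 3 of them found in annotated transcripts, and Sgms2 had 6, of which only 1 was found. Each window stands for only 1 start, and both lie inside the annotated gene spans. On the minus strand the Sgms2 span begins at 131491411, far upstream of its window. That window therefore need not be the main promoter of Sgms2.

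The comparison of each drug with vehicle asks how cortical RNA differs with early exposure in each genotype, with litter not separated from drug. A gene passed at a limma adjusted p under 0.05 over 16669 genes. With lithium in HT 6 of 10 members were higher and none lower (Asah1, Acer2, Acer3, Sgms1, Sgms2 and Cers6), where 14.1% of all genes passed. Asah1 and Sgms1 count there through HT vehicle libraries that were in view when they were chosen, so nothing is read from that count, and it was 4 with limma, edgeR or DESeq2 on recovered reads. With lithium in WT 3 were higher and none lower (Sgms1, Sgms2 and Cers6), where 3.34% of all genes passed. With fluoxetine in WT 3 were higher and none lower (Sgms1, Sgms2 and Cers6), where 7.39% passed. In fluoxetine against vehicle in HT, 4 members were higher (Asah1, Sgms1, Sgms2 and Cers2) and 1 lower (Sphk2) past that threshold, where 12.8% of all genes passed, and nothing is read from that count. The median log2 difference of the members was 0.14 for lithium in HT and 0.05 in WT, and 0.15 for fluoxetine in HT and 0.04 in WT, beside medians of 0.00 over all genes. The HT medians include Asah1 and Sgms1 values from libraries in view when those genes were chosen. What led to the other symbols is not recorded, so no shift of the set is read from the medians or the WT counts. Within a genotype both drugs were compared with the same vehicle libraries, so their differences are not independent.

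**Figure D1:**
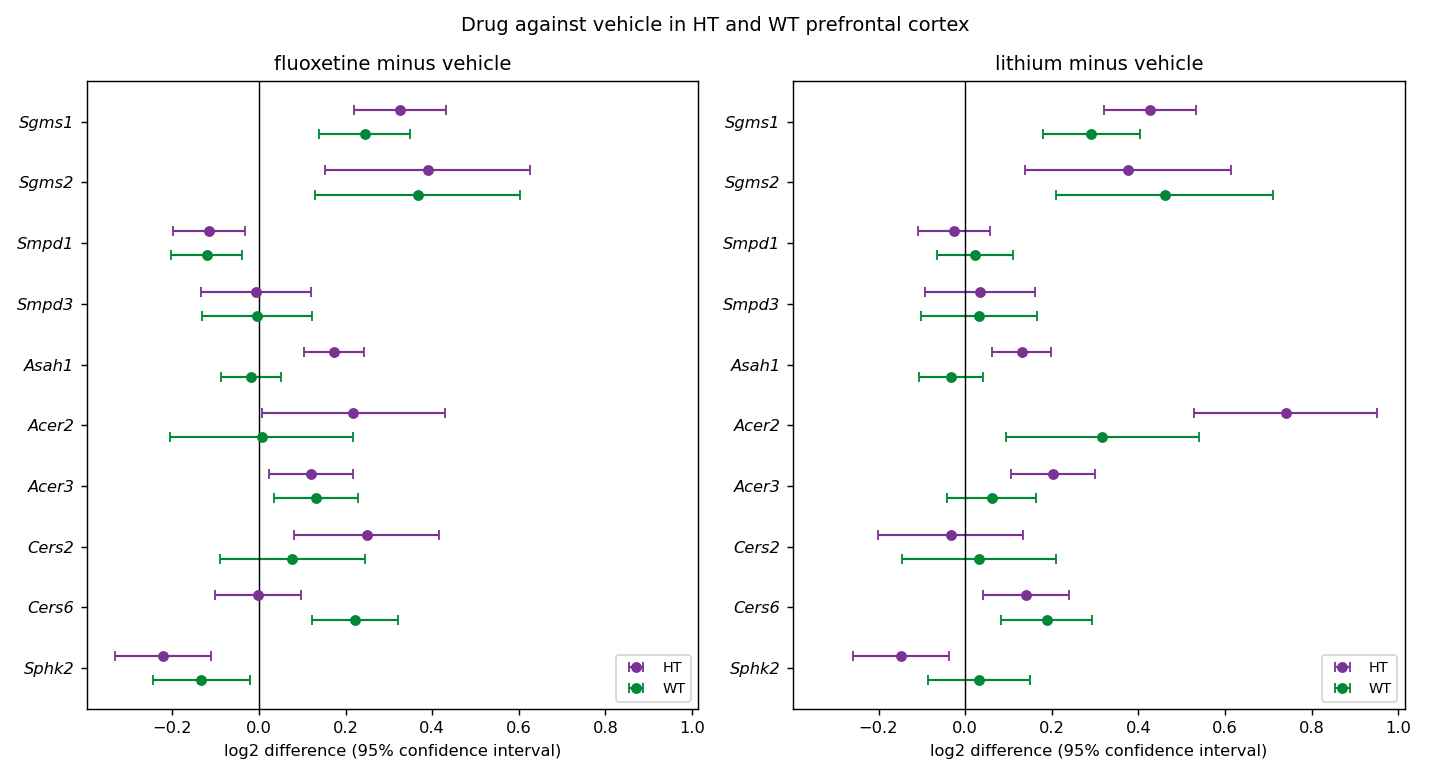
Log2 difference (horizontal axis, drug minus vehicle, with 95% confidence interval) of the 10 members for fluoxetine (left) and lithium (right), HT above WT for each gene. The intervals of Sgms1 and Sgms2 lie above 0 in each panel and genotype, Acer2 is farthest right at 0.74 for lithium in HT, and Smpd3 lies within 0.04 of 0. The Sgms1 difference for fluoxetine in HT was on record when the symbols were chosen. Its lithium difference in HT uses the same vehicle libraries.

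Sgms1 encodes the Golgi sphingomyelin synthase (ENSMUSG00000040451, chromosome 19, 32122727 to 32389714). Its normalised count had a lowest, median and highest value of 1045, 1180 and 1239 in HT lithium, against 813, 856 and 949 in HT vehicle. In WT lithium they were 1061, 1167 and 1265, against 796, 969 and 1050 in WT vehicle. Every lithium library lay above every vehicle library of its genotype, without overlap. The share of all genes without overlap was not counted, so nothing is read from the separation itself. The log2 difference was 0.43 in HT (SE 0.0528, 95% confidence interval 0.32 to 0.53, limma adjusted p = 3.73e-07) and 0.29 in WT (SE 0.0560, interval 0.18 to 0.40, adjusted p = 0.000931). The HT comparison shares its vehicle libraries with the one in which Sgms1 was already known, so its p-value is not an independent test.

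Sgms1 was also higher under fluoxetine in WT. In WT fluoxetine the lowest, median and highest counts of Sgms1 were 967, 1112 and 1301, against 796, 969 and 1050 in WT vehicle, and 8 of 10 WT fluoxetine libraries exceeded every WT vehicle library. The log2 difference in WT was 0.24 (SE 0.0528, interval 0.14 to 0.35, limma adjusted p = 0.0025). In HT, where the gene had been noticed, fluoxetine libraries held 901, 1117 and 1226 (lowest, median, highest) against 813, 856 and 949 in vehicle, a log2 difference of 0.32 (interval 0.22 to 0.43). Female and male differences had the same sign, at 0.23 and 0.26 for fluoxetine in WT, 0.43 and 0.42 for lithium in HT and 0.23 and 0.35 for lithium in WT. The interaction of HT against WT was 0.08 for fluoxetine (interval -0.07 to 0.23) and 0.14 for lithium (interval -0.02 to 0.29), and did not pass. In WT, the Sgms1 calls for both drugs held under each of the 15 alternative settings and without any single library. Astrocyte markers were higher on average with lithium than with vehicle in each genotype, with overlapping ranges. On the log2 scale they averaged 12.74 in HT lithium (range 12.67 to 12.85) and 12.67 in HT vehicle (12.59 to 12.77). The SD was 0.0568 and 0.0627. In WT they averaged 12.84 with lithium (12.71 to 13.07) and 12.73 with vehicle (12.64 to 12.84). Of 8 such markers 1 passed, higher, with lithium in each genotype, and 1, lower, with fluoxetine in WT. Within groups Sgms1 correlated with their level at r = 0.43 over 58 libraries, and with the share of mitochondrial reads at r = 0.45. Their part in the result was not tested.

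Sgms2, the synthase of the plasma membrane (ENSMUSG00000050931, chromosome 3, 131318985 to 131491411), was the least abundant member, and its spread was wide. In WT lithium its lowest, median and highest counts were 77.4, 103 and 131, against 52.8, 73.8 and 93.0 in WT vehicle, a log2 difference of 0.46 (SE 0.125, interval 0.21 to 0.71, limma adjusted p = 0.0274). In HT lithium they were 67.6, 90.8 and 130, against 60.5, 72.3 and 95.2 in HT vehicle, a difference of 0.38 (SE 0.118, interval 0.14 to 0.61, adjusted p = 0.0257). In WT fluoxetine they were 71.6, 92.6 and 132, with a difference from WT vehicle of 0.37 (SE 0.118, interval 0.13 to 0.60, adjusted p = 0.0452). The groups overlapped in each case, with 6 of 8 WT lithium, 4 of 10 HT lithium and 5 of 10 WT fluoxetine libraries above every vehicle library of their genotype. In HT, fluoxetine libraries held 69.9, 93.7 and 134, a difference from vehicle of 0.39 (interval 0.15 to 0.63). The log2 differences stayed between 0.30 and 0.48 under all alternatives with a value, while the calls were less stable. Lithium in HT lost its call without HT lithium female 3 (adjusted p = 0.0557) or HT vehicle female 1 (0.0517), male 1 (0.051) or male 4 (0.0515). It was also lost once the exon length slope of each library entered the fit (0.0947) and on recovered reads with limma (0.167), edgeR (0.167) and DESeq2 (0.157). Lithium in WT lost its call without WT lithium female 2, female 3, male 3 or male 4, or WT vehicle female 1, female 4 or male 4, with adjusted p between 0.0549 and 0.079, although no direction changed. Fluoxetine in WT lost its call without any 1 of 12 of 20 libraries (adjusted p up to 0.109) and kept it without WT fluoxetine female 1, female 4, male 1 or male 5, or WT vehicle female 2, female 3, female 5 or male 3. Without the 10 libraries low in olfactory markers, adjusted p was 0.113 for fluoxetine in WT and 0.0702 for lithium in WT, with differences of 0.37 and 0.48. Fluoxetine in WT also lost its call with the exon length slope (0.299), the compared groups alone (0.0827) and quantile normalisation (0.0656). On recovered reads limma gave 0.0532 and edgeR 0.0561. Lithium in WT lost its call with the compared groups alone (0.0781). Female and male differences were 0.24 and 0.49 for fluoxetine in WT, 0.24 and 0.68 for lithium in WT and 0.51 and 0.24 for lithium in HT.

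**Figure D2:**
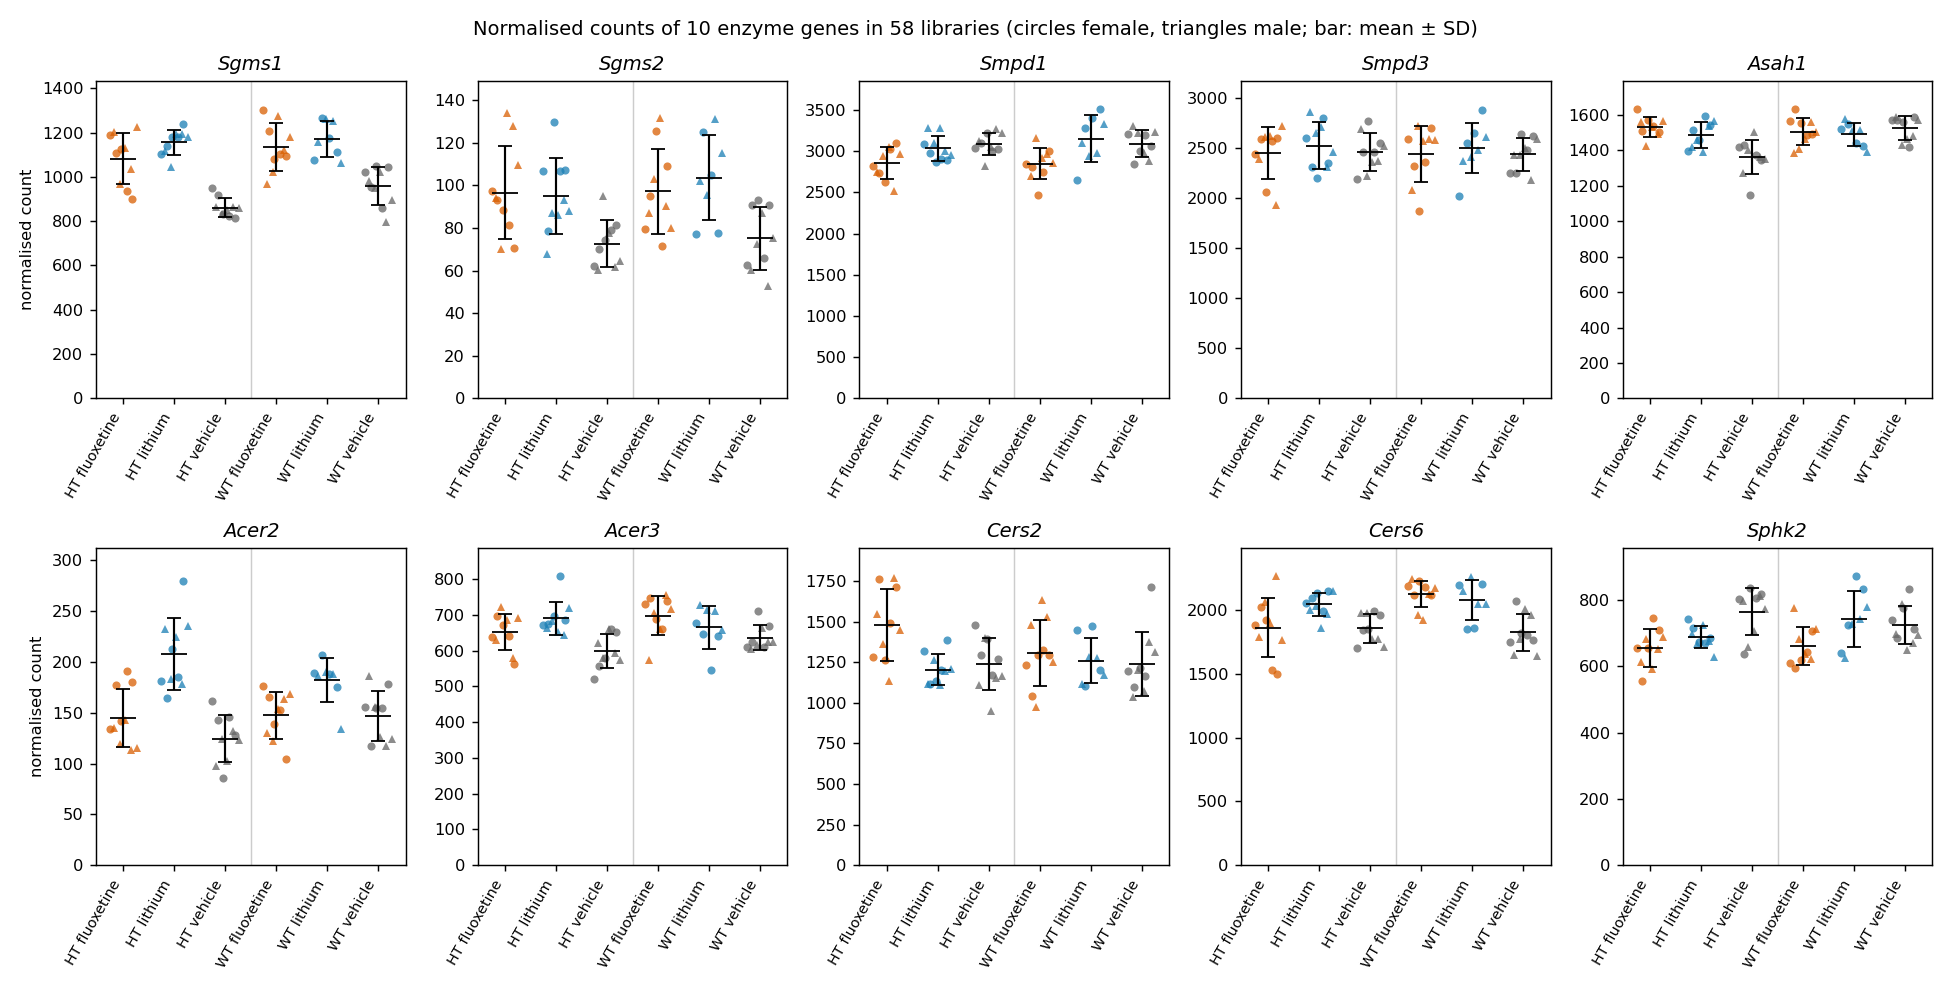
Normalised count (vertical axis, from 0) of each member in every library, by genotype and treatment, with females as circles, males as triangles and mean ± SD as black bars. HT lithium libraries of Sgms1 (1045 to 1239) and of Acer2 (165 to 279) lie above all HT vehicle libraries (813 to 949 and 86.1 to 162), whereas the 6 groups of Smpd3 overlap throughout. How many of all genes separate in this way was not counted.

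Acer2 and Acer3 encode alkaline ceramidases of the Golgi and endoplasmic reticulum, and Asah1 the acid ceramidase of the lysosome. Acer2 (ENSMUSG00000038007, chromosome 4, 86874396 to 86934822) had the highest drug difference of the 10. Its lowest, median and highest counts were 165, 199 and 279 in HT lithium, against 86.1, 126 and 162 in HT vehicle, so the groups did not overlap. As for Sgms1, the share of all genes without overlap was not counted. The log2 difference of Acer2 was 0.74 (SE 0.105, interval 0.53 to 0.95, limma adjusted p = 4.32e-06), with 0.63 in females and 0.85 in males. In WT lithium the values were 134, 188 and 207, against 117, 155 and 186 in WT vehicle, a difference of 0.32 (interval 0.09 to 0.54, adjusted p = 0.11) that did not pass. The interaction between genotype and lithium was 0.42 (SE 0.153, interval 0.12 to 0.73, adjusted p = 0.238), so a difference between genotypes was not established. Under vehicle, the log2 difference in Acer2 of HT from WT was -0.24 (interval -0.45 to -0.03). Fluoxetine against vehicle gave 0.22 in HT (interval 0.01 to 0.43) and 0.01 in WT (interval -0.20 to 0.22, adjusted p = 0.978).

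Set directly against lithium, fluoxetine left Acer2 lower in HT, at 113, 138 and 191 in HT fluoxetine (lowest, median, highest) against the 165, 199 and 279 of HT lithium. No HT fluoxetine library reached the HT lithium median. The log2 difference was -0.52 (SE 0.105, limma adjusted p = 0.000867), and it was -0.31 in WT (SE 0.111, adjusted p = 0.0941). Both Acer2 calls held under all 15 alternatives and without any single library. In fluoxetine against lithium in HT, 2 of 10 members passed, Acer2 lower and Cers2 higher, where 6.79% of all genes passed.

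Acer3 (ENSMUSG00000030760, chromosome 7, 98206389 to 98321208) had lowest, median and highest counts of 644, 680 and 808 in HT lithium, against 521, 587 and 661 in HT vehicle. The log2 difference was 0.20 (SE 0.0483, interval 0.11 to 0.30, limma adjusted p = 0.00342), and the call held under all 15 alternatives. With the exon length slope of each library as a covariate it was 0.13 (adjusted p = 0.0385). That slope averaged 0.0110 in HT lithium and -0.0207 in HT vehicle, and correlated with Acer3 at r = 0.58 within groups. The Acer3 difference was 0.06 for lithium in WT (interval -0.04 to 0.16, adjusted p = 0.622), 0.12 for fluoxetine in HT (interval 0.02 to 0.22) and 0.13 for fluoxetine in WT (interval 0.04 to 0.23, adjusted p = 0.0794). Acer3 therefore passed with lithium in HT alone among the 3 tested drug comparisons, and its interaction with lithium, 0.14 (interval 0.00 to 0.28, adjusted p = 0.356), did not pass.

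Asah1 (ENSMUSG00000031591, chromosome 8, 41340197 to 41374773) stood out by its HT vehicle libraries. Its lowest, median and highest counts were 1149, 1368 and 1501 in HT vehicle, against 1417, 1564 and 1584 in WT vehicle. That is a log2 difference of -0.17 (SE 0.0345, interval -0.23 to -0.10), the result known when the symbols were chosen. Asah1 was 1 member of 10 past the threshold in HT against WT under vehicle, where 0.048% of all genes passed, and nothing is read from it. Under drugs the genotypes were close, with medians of 1534 in HT fluoxetine and 1497 in WT fluoxetine, and of 1485 in HT lithium and 1509 in WT lithium. Their log2 differences were 0.03 (interval -0.04 to 0.10, limma adjusted p = 0.78) and 0.00 (interval -0.08 to 0.07, adjusted p = 0.989).

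Against their own vehicle group, HT lithium libraries held 1390, 1485 and 1595 counts of Asah1 (lowest, median, highest), a log2 difference of 0.13 (SE 0.0345, interval 0.06 to 0.20, limma adjusted p = 0.00839), and HT fluoxetine libraries held 1422, 1534 and 1633, a difference of 0.17 (interval 0.10 to 0.24). All 10 HT fluoxetine and all 10 HT lithium libraries lay above the HT vehicle median. Both rest on the HT vehicle libraries that had already drawn attention to Asah1, so the p-value for lithium is not an independent test. In WT the differences were -0.02 for fluoxetine (interval -0.09 to 0.05, adjusted p = 0.777) and -0.03 for lithium (interval -0.11 to 0.04, adjusted p = 0.735). Interactions were 0.19 for fluoxetine (interval 0.09 to 0.29) and 0.16 for lithium (interval 0.06 to 0.26), and neither passed over all genes. The share of reads from mitochondrial genes moved alongside. It averaged 7.97% ± 0.657 in HT fluoxetine, 7.66% ± 0.746 in HT lithium and 6.75% ± 0.660 in HT vehicle (SD, n = 10 each). In WT it averaged 7.39% ± 0.543 with fluoxetine (SD, n = 10), 7.33% with lithium (range 5.33% to 8.56%, n = 8) and 7.90% ± 0.700 with vehicle (SD, n = 10). It correlated with Asah1 within groups at r = 0.69 over 58 libraries. Its part in the result was not tested.

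Smpd1 is the lysosomal acid sphingomyelinase (ENSMUSG00000037049, chromosome 7, 105554360 to 105558389), and Smpd3 a neutral sphingomyelinase of neurons (ENSMUSG00000031906, chromosome 8, 106252548 to 106337988). Smpd3 moved little. Smpd1 was slightly lower under fluoxetine than under vehicle, with 9 of 10 fluoxetine libraries below the vehicle median in each genotype, and passed in neither. Smpd1 had lowest, median and highest counts of 2464, 2851 and 3156 in WT fluoxetine, against 2847, 3129 and 3308 in WT vehicle, a log2 difference of -0.12 (interval -0.20 to -0.04, limma adjusted p = 0.0596) that missed the threshold. In HT the difference from vehicle under fluoxetine was -0.12 (interval -0.20 to -0.03). Lithium gave -0.02 in HT (interval -0.11 to 0.06, adjusted p = 0.728) and 0.02 in WT (interval -0.06 to 0.11, adjusted p = 0.853). In fluoxetine against lithium in WT, Smpd1 fell by 0.14 on the log2 scale (SE 0.0437, adjusted p = 0.0473), the 1 member of 10 that passed where 4.21% of all genes did. WT lithium libraries held 2646, 3191 and 3514, overlapping those of WT fluoxetine. That call was lost without any 1 of 14 of the 18 libraries (adjusted p up to 0.161) and held without WT fluoxetine female 5, WT fluoxetine male 2, WT lithium female 1 or WT lithium male 2. For Smpd3 the 4 drug differences lay between -0.01 and 0.04, and the widest interval reached from -0.10 to 0.17, for lithium in WT.

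Both sphingomyelinases varied with tissue markers within groups. In deviations from group means over 58 libraries, which share their libraries and depth, Smpd1 correlated with excitatory neuron markers at r = 0.76 and Smpd3 at r = 0.77, and with each other at r = 0.77. With olfactory bulb markers r was -0.59 for Smpd1 and -0.69 for Smpd3. The 10 libraries low in olfactory markers averaged 2669 ± 124 counts of Smpd3 (SD, n = 10), and the other 48 averaged 2429 ± 217 (SD, n = 48).

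Cers2, which makes the very long-chain ceramides of myelin (ENSMUSG00000015714, chromosome 3, 95314791 to 95323599), was high in HT fluoxetine. Its lowest, median and highest counts there were 1132, 1471 and 1770, against 1112, 1200 and 1386 in HT lithium and 952, 1222 and 1479 in HT vehicle. Against lithium the log2 difference was 0.28 (SE 0.0832, interval 0.12 to 0.45, limma adjusted p = 0.028), and against vehicle it was 0.25 (interval 0.08 to 0.42). In WT, Cers2 differed from vehicle by 0.08 under fluoxetine (interval -0.09 to 0.24, adjusted p = 0.592) and by 0.03 under lithium (interval -0.14 to 0.21, adjusted p = 0.904). Oligodendrocyte markers moved with it. Of 11 such markers 7 passed, all higher, in HT fluoxetine against HT lithium, and 6, all higher, against HT vehicle. Their mean log2 level was 11.8 ± 0.394 in HT fluoxetine, 11.4 ± 0.218 in HT lithium and 11.4 ± 0.327 in HT vehicle (SD, n = 10 each). Within groups Cers2 correlated with that level at r = 0.83 over 58 libraries. With the level as a covariate the Cers2 difference was 0.05 both against lithium (adjusted p = 0.678) and against vehicle. The call against lithium was also lost without the libraries low in olfactory markers (0.31, adjusted p = 0.0557) and without any 1 of 7 libraries, HT fluoxetine female 2, female 5, male 1 or male 4, or HT lithium female 2, female 3 or male 1, with adjusted p between 0.0518 and 0.0665.

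**Figure D3:**
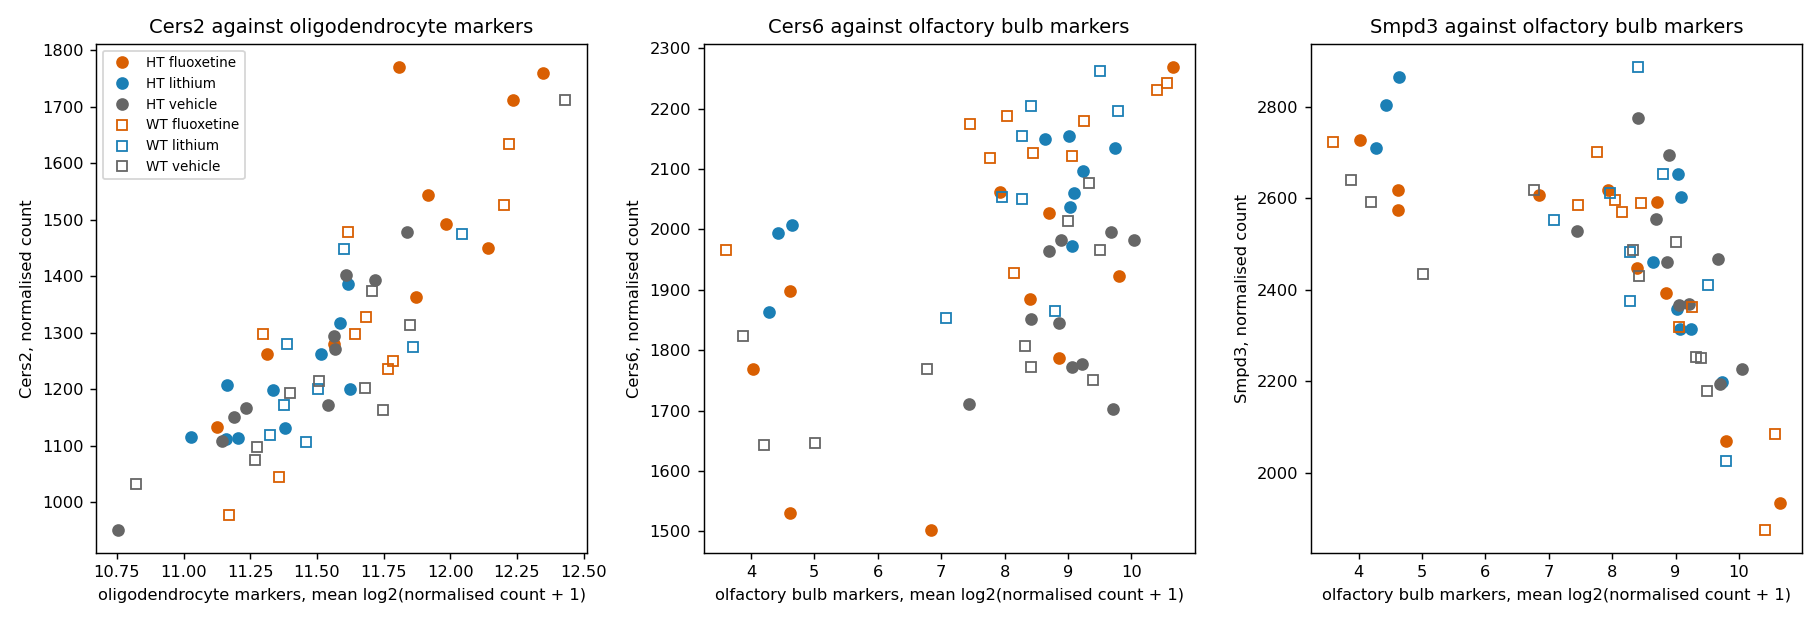
Normalised counts of Cers2, Cers6 and Smpd3 (vertical axes) against the mean log2 level of oligodendrocyte or olfactory bulb markers (horizontal axes), 1 point per library, HT filled and WT open. Cers2 tracks the oligodendrocyte markers (r = 0.83 within groups), and the 10 libraries at or below 5.01 on the olfactory axis stand apart from the other 48.

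Cers6, which makes ceramides with palmitic acid (ENSMUSG00000027035, chromosome 2, 68861441 to 69114282), rose in WT with each drug. Its lowest, median and highest counts were 1928, 2150 and 2242 in WT fluoxetine, against 1642, 1789 and 2077 in WT vehicle, and all 10 WT fluoxetine libraries exceeded the WT vehicle median. The log2 difference was 0.22 (SE 0.0495, interval 0.12 to 0.32, limma adjusted p = 0.00321). In WT lithium the counts were 1853, 2105 and 2262, a difference of 0.19 (SE 0.0525, interval 0.08 to 0.29, adjusted p = 0.0328). In HT lithium they were 1863, 2049 and 2155, against 1703, 1848 and 1996 in HT vehicle, a difference of 0.14 (SE 0.0495, interval 0.04 to 0.24, adjusted p = 0.0474). For fluoxetine in HT it was 0.00 (interval -0.10 to 0.10). The lithium calls were unstable: the one in HT was lost without any 1 of 14 of 20 libraries (adjusted p up to 0.0987) and kept without HT lithium female 1 or male 3, or HT vehicle female 4, female 5, male 1 or male 2. With the slope of a library's values on exon length as a covariate it was 0.05 (adjusted p = 0.409), and it was also lost on recovered reads with limma (0.0952), edgeR (0.0951) and DESeq2 (0.0846). Other limma settings that lost the HT call were quantile normalisation (adjusted p = 0.0699), no trend (0.0539), no filter (0.0506), the replicate block (0.0534) and the oligodendrocyte covariate (0.0516). The one in WT was lost without WT lithium female 1, female 4 or male 2, or WT vehicle female 1, female 4, female 5, male 1 or male 5, with adjusted p between 0.0555 and 0.11, and without the libraries low in olfactory markers (0.14, adjusted p = 0.196). That WT call was lost as well with quantile normalisation (limma adjusted p = 0.0512), the compared groups alone (0.0898) and the replicate block (0.0606).

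Cers6 was also lower in HT than in WT under fluoxetine, with an unstable call. Its interaction of genotype with fluoxetine was -0.23 (interval -0.37 to -0.08, limma adjusted p = 0.221) and did not pass. In HT fluoxetine its lowest, median and highest counts were 1503, 1891 and 2269, against the 1928, 2150 and 2242 of WT fluoxetine, and 7 of 10 HT libraries lay below every WT library. It fell by 0.20 on the log2 scale (SE 0.0495, interval -0.30 to -0.10, limma adjusted p = 0.043), the 1 member of 10 that passed in HT against WT under fluoxetine, where 0.612% of all genes passed. The fall was 0.30 in females and 0.10 in males on that scale. The call was lost without any 1 of 13 of 20 libraries (adjusted p up to 0.125), the exceptions being HT fluoxetine female 1, female 2, female 3, male 2 and male 4 and WT fluoxetine male 2 and male 3, and without the libraries low in olfactory markers, where the difference was -0.15 (adjusted p = 0.259). Cers6 correlated within groups at r = 0.60 with olfactory markers, -0.76 with microglia markers and 0.69 with the exon length slope. In HT against WT under fluoxetine all 8 microglia markers had positive log2 differences (median 0.12) and 1 passed. Their mean log2 level was 9.93 ± 0.139 in HT fluoxetine and 9.79 ± 0.106 in WT fluoxetine (SD, n = 10 each). For fluoxetine in WT against vehicle 0 of the 8 were positive (median -0.09), and their part in the Cers6 results was not tested. With the length slope as a covariate the difference between genotypes was -0.13 (adjusted p = 0.138), and that for fluoxetine in WT was 0.13 (adjusted p = 0.104).

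Sphk2, a sphingosine kinase (ENSMUSG00000057342, chromosome 7, 45709467 to 45718002), was lower in HT fluoxetine than in HT vehicle. Its lowest, median and highest counts were 556, 655 and 745 in HT fluoxetine, against 636, 799 and 837 in HT vehicle, a log2 difference of -0.22 (interval -0.33 to -0.11). In WT fluoxetine they were 594, 640 and 775, against 649, 704 and 833 in WT vehicle, a difference of -0.13 (interval -0.24 to -0.02, limma adjusted p = 0.123) that did not pass. Lithium gave -0.15 in HT (interval -0.26 to -0.04, adjusted p = 0.0601) and 0.03 in WT (interval -0.09 to 0.15, adjusted p = 0.845). All 10 HT lithium libraries nonetheless lay below the HT vehicle median, and the groups overlapped. Over 58 libraries the within-group deviations of Sphk2 and Asah1 correlated at r = -0.56. The share of mitochondrial reads given for Asah1, higher in HT fluoxetine than in HT vehicle, correlated with Sphk2 at r = -0.50, and its part was not tested.

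The comparison of HT with WT asks what the labelled genotype does within each treatment. Under lithium none of the 10 members passed by limma, where 0.06% of all genes did. At an unadjusted p under 0.05 were 0 members, beside 1683 of 16669 genes. edgeR and DESeq2 on recovered reads also passed 0. Under vehicle 3 members had an interval off 0, Asah1, Acer2 and Sgms1, with values for the first pair given above. In that comparison 2035 of 16669 genes had an unadjusted limma p under 0.05. Sgms1 had a log2 difference of -0.15 (interval -0.26 to -0.05). Under lithium the difference in Sgms1 was -0.02 (interval -0.13 to 0.10) and under fluoxetine -0.07 (interval -0.18 to 0.04). No member passed in the interactions of genotype with fluoxetine or lithium, where 0.042% and 0% of all genes did. By limma 2 of 10 members had an unadjusted p under 0.05 in the first, beside 1858 of 16669 genes. In the second 4 of 10 did, beside 2320 of 16669 genes, and nothing is read from these counts. edgeR and DESeq2 passed 0 members in each interaction. Between females and males no member passed, where 0.132% of all genes did. There 0 members had an unadjusted p under 0.05, beside 1376 of 16669 genes. The log2 difference of females from males was widest for Acer2, at 0.12 (interval 0.00 to 0.25, adjusted p = 0.607), and edgeR and DESeq2 passed 0 members.

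**Figure D4:**
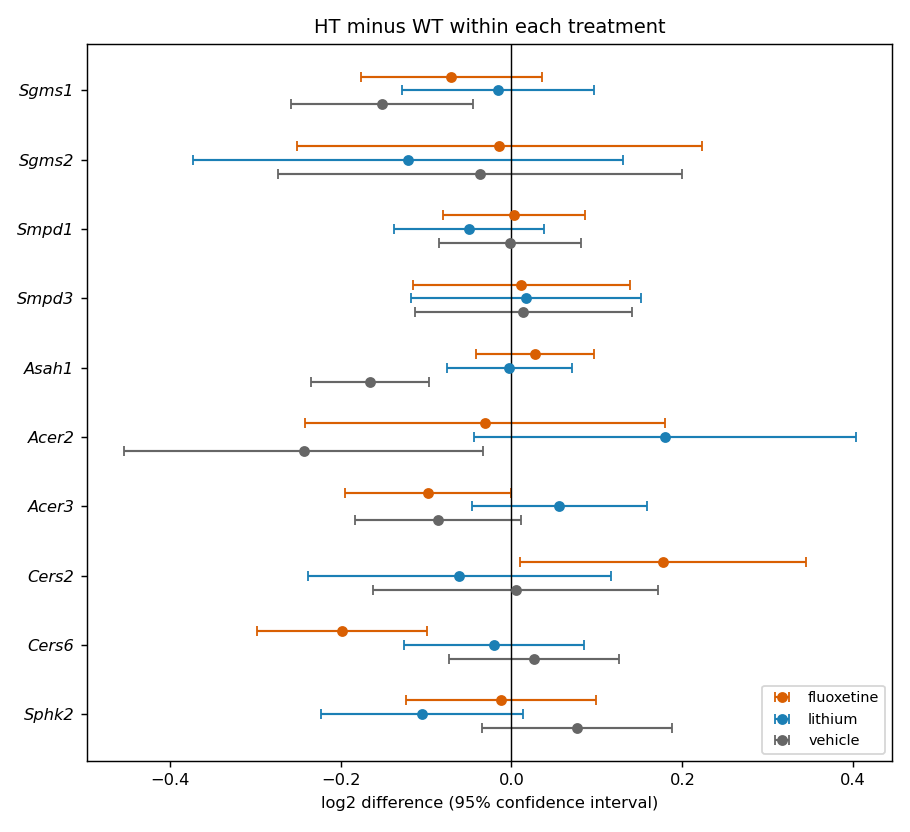
Log2 difference (horizontal axis, HT minus WT, with 95% confidence interval) of the 10 members under fluoxetine, lithium and vehicle. Asah1 lies at -0.17 under vehicle and within 0.03 of 0 under both drugs, Cers6 lies at -0.20 under fluoxetine, and all 10 lithium intervals include 0. The Asah1 difference under vehicle was on record when the symbols were chosen, so nothing is read from its contrast with the drugs.

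Genes most like each member were taken as the 3 with the highest Pearson r of deviations from the 12 group means over 58 libraries. For Cers2 they included Plekhb1 (r = 0.83) and Ugt8a (0.83), the galactosylceramide synthase of myelin. For Asah1 they were mt-Nd6 (0.76), Nek7 (0.76) and mt-Nd4 (0.75), of which mt-Nd6 and mt-Nd4 are mitochondrial genes of respiratory complex I. Sgms1 was most like Gjb6 (0.67), an astrocyte connexin, Smim3 (0.66) and Slc2a1 (0.64), a glucose transporter of the blood-brain barrier. The highest r were those of Smpd3 with Arhgap44 (0.96) and Unc5a (0.95), a netrin receptor, and of Smpd1 with Klhdc3 (0.95) and Tmem59l (0.95). Acer3 followed Mib1 (0.89) and Gabrb1 (0.87), Cers6 followed Lyst (0.86) and Abl2 (0.84), and Sphk2 followed Ncln (0.72). For Acer2 and Sgms2, the members with the fewest reads per kb, the leading r were only 0.56 (Thumpd3) and 0.53 (Eps8).

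Other genes of the pathway were counted by list. Of 14 tested genes of ceramide synthesis from serine and palmitate, 2 rose with lithium in HT, Kdsr (log2 difference 0.22, limma adjusted p = 0.00109), a reductase of the sphingoid base, and Sptlc2 (0.13, adjusted p = 0.00951), a subunit of serine palmitoyltransferase. None of the 14 passed with lithium or fluoxetine in WT, and in fluoxetine against vehicle in HT 4 were higher and 2 lower. The list medians were 0.07 for lithium in HT, 0.02 for lithium in WT, 0.14 for fluoxetine in HT and 0.03 for fluoxetine in WT. Of 11 other genes of sphingomyelin and ceramide turnover, 3 rose with lithium in HT and none passed with either drug in WT. The 3 were Samd8 (0.21, adjusted p = 0.000634), a relative of the sphingomyelin synthases, Col4a3bp (0.17, adjusted p = 0.0011), which carries ceramide from the endoplasmic reticulum to the Golgi, and Asah2 (0.23, adjusted p = 0.0439), the neutral ceramidase. In fluoxetine against vehicle in HT 1 of the 11 was higher, Smpdl3a (0.17), a relative of acid sphingomyelinase.

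Downstream of the ceramidases, 13 genes of sphingosine 1-phosphate were tested. Spns2, the exporter of that lipid, rose with lithium by 0.32 on the log2 scale in HT (SE 0.0602, limma adjusted p = 0.000361) and by 0.31 in WT (SE 0.0638, adjusted p = 0.00171), and was the 1 gene of the list that passed in each. S1pr1, a receptor for it, fell by 0.27 with fluoxetine in WT (SE 0.0614, adjusted p = 0.00409), again the 1 that passed. In fluoxetine against vehicle in HT 1 was higher, Sgpp1 (0.17), a phosphatase of that lipid. The interaction of genotype and fluoxetine for S1pr1 was 0.42 (SE 0.0868, adjusted p = 0.0391) and passed, where 0.042% of all genes did. The number of genes passing there ran from 0 to 24 by setting and from 1 to 46 with 1 library left out. All 8 endothelial and mural markers had positive differences in that interaction (median 0.20), and 1 passed. Their part in the S1pr1 result was not tested.

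Of 24 glycosphingolipid genes, none passed with lithium in either genotype. With fluoxetine in WT 1 rose, Galc (0.16, limma adjusted p = 0.0118), which breaks down galactosylceramide, and 1 fell, Gm2a (-0.18, adjusted p = 0.0113), an activator protein for ganglioside breakdown. In fluoxetine against vehicle in HT 2 were higher, among them Ugt8a (0.41), and 2 lower. Of 27 lysosomal genes, 3 rose and 1 fell with lithium in HT. Lipa, the lysosomal acid lipase, rose by 0.20 (adjusted p = 0.00806) and Tfeb, a transcription factor of lysosomal genes, fell by 0.35 (adjusted p = 0.00202). With lithium in WT 2 rose, Lipa (0.19, adjusted p = 0.0398) and Tpp1 (0.11, adjusted p = 0.0473), a lysosomal peptidase, and with fluoxetine in WT 1 did, Lipa (0.17, adjusted p = 0.0347). In fluoxetine against vehicle in HT 3 were higher, Lamp2 (0.17), Lipa (0.22) and Tpp1 (0.12). Each list's share of calls stands beside the 14.1%, 3.34%, 7.39% and 12.8% of all genes given above.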

How the data were processed

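RNA was sequenced from 58 mouse prefrontal cortex libraries, with a stranded mRNA kit per the labels' protocols. The submitters' processing notes name Salmon 0.11.2, R 3.6.0, DESeq2 1.19.11 and GRCm38, with no annotation release given. The authors deposited 1 table of normalised signal per gene, gene counts divided by a size factor per library. In 54 libraries values were whole multiples of the value of 1 read (0.75 to 1.27, tolerance 0.01) for 100% of values, and in 4 HT libraries (HT lithium male 3, HT vehicle female 2, male 1 and male 5) that value lay too close to 1 to check. Tests on recovered reads used the 54. Depth was 23.5 to 38.6 M reads. Symbols came from the supplied annotation for 18077 of 18088 genes.

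The values being normalised, the main test was limma 3.58.1 (R 4.3.3) with a mean-variance trend on log2(value + 1), not a count test. It was fitted to 16669 genes with a mean of at least 10 in all 58 libraries, with 12 coefficients of genotype, treatment and sex, comparisons averaged over sexes and Benjamini-Hochberg adjustment over all genes. Fold changes on this scale understate those of low genes. A simulated data set was used to check the fit. Alternatives were other normalisation, variance models, filters and pseudocounts, a block for the replicate number, only the groups being compared, marker and length covariates, limma, edgeR 4.0.16 and DESeq2 1.42.0 on recovered reads, and each library left out. The setting without libraries low in olfactory markers was chosen after seeing the data. No 2 replicates were as alike as sampling noise would make them (ratio 2.92 to 57.4 over 112 pairs). Named genes were the 10 members, up to 4 of each pathway list by smallest p per comparison, and 3 genes most like each member, some of which are not reported here. The members and lists were chosen with earlier results of these data known.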

Additional observations from a re-analysis of the deposited data

Results flagged for a closer look

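Within the 6 groups of genotype and treatment, 60 sets of values of 1 member were examined for a library far from the rest, and 4 were found. Chance gives about 1 in 20 such sets. Acer2 in WT lithium male 4 stood at 133.9, with the next of the 8 WT lithium libraries at 175.3, a gap of 0.568 of the group's range. Acer3 in HT lithium female 4 stood at 808.1 above the next of 10 at 718.7, a gap of 0.543 of the range. Acer3 in WT fluoxetine male 1 stood at 574.5 below the next of 10 at 660.1, a gap of 0.475. Cers2 in WT vehicle female 5 stood at 1711 above the next of 10 at 1374, a gap of 0.496. That library also held the highest mean log2 level of oligodendrocyte markers of its group, 12.4.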

How the results depend on the processing

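Across 15 alternatives no called difference changed its direction. Calls for Sgms1 with either drug in WT, Acer2 and Acer3 with lithium in HT and Acer2 between drugs in HT held under every setting and without any single library. Left out of that list are fluoxetine against vehicle in HT, and Asah1 and Sgms1 with lithium in HT, given the results known beforehand. The listed calls still use libraries of those results. These are WT vehicle for Sgms1, HT vehicle for Acer2 and Acer3 with lithium, and HT fluoxetine for Acer2 between drugs. Counts of passing members moved as follows. HT against WT under vehicle (1) went to 0 with quantile normalisation, the compared groups alone, the olfactory covariate, limma, edgeR or DESeq2 on 54 libraries, and without libraries low in olfactory markers. HT against WT under fluoxetine (1) went to 0 with quantile normalisation, the compared groups alone, the oligodendrocyte or length covariate, edgeR, and without those libraries. Lithium in HT (6) gave 4 to 7, with Sgms2 and Cers6 lost with the length covariate and with limma, edgeR or DESeq2 on 54 libraries. Fluoxetine in HT (5) gave 3 with limma, edgeR or DESeq2 on 54 libraries. Fluoxetine in WT (3) gave 1 with the length covariate, and lithium in WT (3) gave 1 with the compared groups alone or without the libraries low in olfactory markers. Fluoxetine against lithium in HT (2) gave 1 with the oligodendrocyte covariate, limma on 54 libraries, or without the libraries low in olfactory markers. In WT (1) it gave 0 without the trend, without a filter, with the compared groups alone, the length covariate or limma on 54 libraries, and 2 with DESeq2. Beyond fewer libraries in some settings, the cause was not tested. Sgms2 has no value under a mean of at least 100, and the sex comparison none for the compared groups alone.

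Leaving out each library in turn gave 4 to 6 members for fluoxetine in HT, 2 to 4 in WT, 4 to 7 for lithium in HT, 1 to 3 in WT, 1 to 3 for fluoxetine against lithium in HT, 0 to 2 in WT, 0 to 1 for HT against WT under vehicle or fluoxetine, and 0 to 0 under lithium, for sex and for both interactions. Under vehicle the 1 call held only without HT vehicle female 1, 2 or 4 or male 3, or WT vehicle female 4, male 2 or 3, and under fluoxetine only without HT fluoxetine female 1, 2 or 3, male 2 or 4, or WT fluoxetine male 2 or 3. Lithium in WT fell to 1 without WT vehicle female 1 or 4.

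The replicate numbers did not pair the libraries: deviations of same-numbered libraries correlated with a median r of -0.01 over 309 pairs (range -0.47 to 0.42) and those of other numbers with a median of 0.00. With the replicate number as a block, the counts for HT against WT under vehicle and for fluoxetine against lithium in WT were 0.

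Over all genes, counts by setting ran from 0 to 31 for HT against WT under vehicle, 2 to 225 under fluoxetine, 2 to 32 under lithium, 789 to 4088 for fluoxetine in HT, 273 to 1392 in WT, 1061 to 3186 for lithium in HT, 229 to 726 in WT, 534 to 1857 for fluoxetine against lithium in HT and 228 to 1324 in WT. Leaving out 1 library gave 2 to 25, 11 to 172 and 2 to 211 for HT against WT under vehicle, fluoxetine and lithium, 1353 to 2276 and 668 to 1629 for fluoxetine in HT and WT, 1644 to 2691 and 272 to 771 for lithium in HT and WT, and 757 to 1327 and 247 to 2445 between drugs in HT and WT. Both 211 and 2445 were without WT lithium female 1, and 247 without WT lithium female 3 or 4. Depth limits Sgms2 and Acer2 most, the members with the fewest reads.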

Other observations

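Other genes of the pathway differed between the drugs. In fluoxetine against lithium in HT, Spns2, the exporter of sphingosine 1-phosphate, was lower by a log2 difference of -0.33 (limma adjusted p = 0.000272), and Samd8, a relative of the sphingomyelin synthases, by -0.18 (adjusted p = 0.00492). The galactosylceramide synthase Ugt8a (0.52, adjusted p = 0.0112) and the sulfotransferase Gal3st1 (0.39, adjusted p = 0.0215), both enzymes of myelin lipids, were higher, as were 7 of 11 oligodendrocyte markers, where 6.79% of all genes passed. In WT, the lysosomal sialidase Neu1 was lower under fluoxetine than under lithium by a log2 difference of -0.23 (adjusted p = 0.00128), 1 of 3 lower and 0 higher among 27 lysosomal genes, where 4.21% of all genes passed.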
